A study of Mus musculus with 24 samples.

Results

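The acute phase protein genes Saa1, Saa2, Saa3, Saa4, Orm1, Orm2, Lcn2, Hp, Hamp and Serpina3k were followed by gene symbol through 24 RNA sequencing libraries of mouse liver and brain. They are 10 of the 55797 gene names in the deposited counts, and all 10 were found. The liver and the brain gave 12 libraries each, from male mice of the strain entry C57/BL6 in a study of how 3M-Brazzein and sucrose bear on brain and liver health in leptin receptor deficiency. The 12 libraries of a tissue made 6 groups of 2 replicates: db/db mice on brazzein, on sucrose and on water, and db/+ mice on brazzein, on sucrose and on water. Mice of the genotype db/db carry 2 defective copies of the leptin receptor gene Lepr and become obese and diabetic, and db/+ mice keep 1 functional copy and are their lean controls. Brazzein is a sweet-tasting plant protein, and all samples carry a treatment entry of 16 weeks. Genotype and drink were read from the sample titles. A second genotype field in the labels reads db/+ for every brain and db/db for every liver, against the titles of 12 of the 24 samples, and every genotype comparison here rests on the titles. The labels do not say which brain region was taken or whether replicates are separate animals, so p-values measure the spread between these samples only, which may be technical.

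Acute phase proteins are plasma proteins whose output by the liver changes in inflammation. Cytokines, chiefly interleukin 6 and interleukin 1, act on hepatocytes through STAT3, NF-kappaB and C/EBP transcription factors, and the positive acute phase genes are then transcribed more while the negative ones, such as those of albumin and retinol-binding protein, are transcribed less. Serum amyloid A (Saa1, Saa2 and Saa3) travels on high-density lipoprotein, and Saa4 encodes the form made without a stimulus. Orm1 and Orm2 encode the alpha-1-acid glycoproteins, which bind small lipophilic molecules, and Hp encodes haptoglobin, which captures free hemoglobin. Lcn2 encodes lipocalin 2, which holds bacterial siderophores and so withholds iron. Hamp encodes hepcidin, the peptide hormone that closes the iron exporter ferroportin and answers to both iron (through BMP signalling) and interleukin 6. Serpina3k encodes contrapsin, a serine protease inhibitor of the plasma.

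Levels are in CPM, the count scaled to the library's total. Each liver held between 60384569 and 79385804 counts and each brain between 58287665 and 77772849. Lepr, the altered gene, was at 0.690 to 2.50 CPM in db/db livers and 1.90 to 18.9 CPM in db/+ livers (log2 -1.93, SE 0.32, edgeR quasi-likelihood adjusted p = 0.00788). The brains held 2.004 to 2.77 CPM in db/db and 3.13 to 3.87 CPM in db/+ (log2 -0.48, SE 0.11, edgeR adjusted p = 0.157). The 7 hepatocyte markers summed to 61229 to 87407 CPM in db/db livers and 61131 to 81356 CPM in db/+ livers, and to at most 6.62 CPM in any brain. Most of the liver sum was Alb, at a mean of 65201 CPM in db/db and 56722 CPM in db/+. Of the 7 markers, 1 was lower and 0 higher in db/db liver (edgeR adjusted p below 0.05), with a median log2 of -0.475. Over all liver genes tested, 7.27% were lower and 7.91% higher. The 3 neuron markers summed to 3499 to 3695 CPM in db/db brains and 3595 to 3776 CPM in db/+ brains, and to at most 9.83 CPM in any liver.

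Of the 10 members, 5 rose and 2 fell in db/db livers, set against db/+ livers, when the 3 drinks were averaged, at an adjusted p below 0.05. The higher genes were Lcn2, Saa2, Saa1, Orm2 and Orm1, and the lower ones Hamp and Serpina3k; Saa3, Saa4 and Hp did not pass. Over all 19352 liver genes tested the same comparison called 15.2%, with 7.91% higher and 7.27% lower. The median log2 difference of the 10 genes was 0.80, beside -0.03 over all genes. For 5 of the 10 (Saa1, Saa2, Lcn2, Hamp and Serpina3k) the 6 db/db libraries did not overlap the 6 db/+ libraries, which held for 8.43% of all genes. In bulk tissue, fewer cells of a type and less RNA per cell cannot be told apart.

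**Figure D1:**
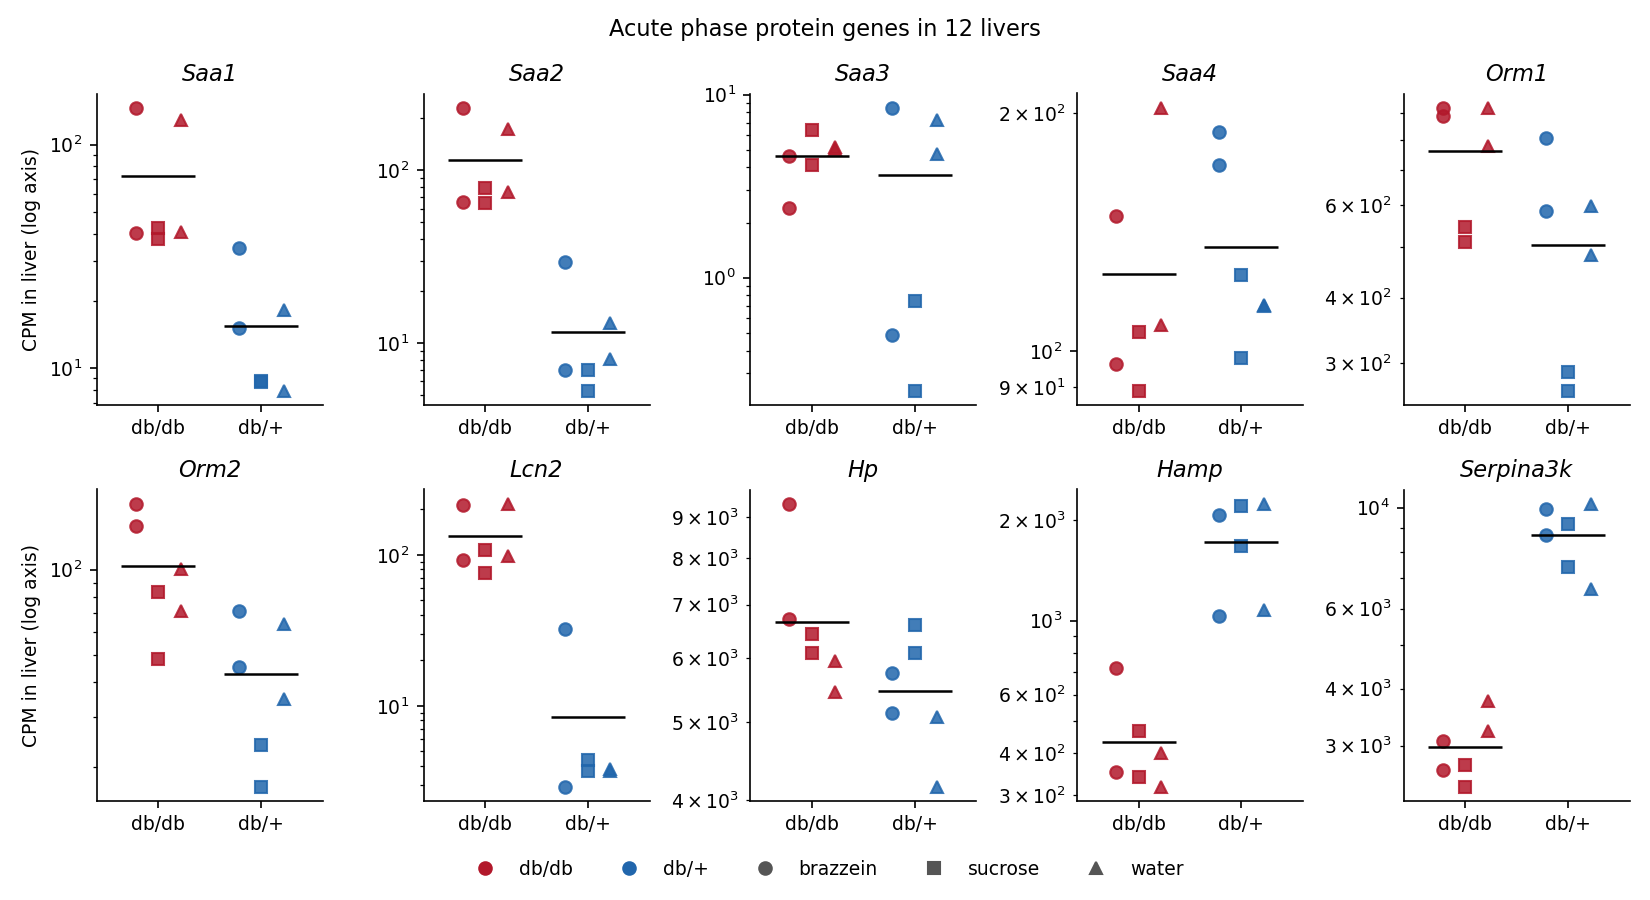
Expression of the 10 acute phase protein genes in the 12 livers, in CPM on a log axis, with db/db left of db/+ in each panel, 1 marker shape per drink and a line at the mean of 6 libraries. Points of the genotypes are apart for Saa1, Saa2, Lcn2, Hamp and Serpina3k and overlap for the other 5 genes.

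Promoters are given for the 5 called genes with a RefSeq promoter at hand, Saa1, Saa2, Orm2 and Lcn2 on the higher side and Hamp on the lower. Each is the 250 bases before the gene start, outside the gene, 5′ to 3′ on the gene's strand, from RefSeq on the build GRCm38.p6, another build than the GRCm39 of the submitters' processing notes. They lie at chr7:46742981-46743230 on the minus strand for Saa1, chr7:46751583-46751832 on the plus strand for Saa2, chr4:63362199-63362448 on the plus strand for Orm2, chr2:32387740-32387989 on the minus strand for Lcn2 and chr7:30944030-30944279 on the minus strand for Hamp. Capitals mark motif matches on either strand: TTGCNNAA (C/EBP) in Saa1, Saa2, Orm2 and Lcn2, and TTCNNNGAA (STAT3) and GGCGCC (the BMP-responsive element) in Hamp.
Saa1: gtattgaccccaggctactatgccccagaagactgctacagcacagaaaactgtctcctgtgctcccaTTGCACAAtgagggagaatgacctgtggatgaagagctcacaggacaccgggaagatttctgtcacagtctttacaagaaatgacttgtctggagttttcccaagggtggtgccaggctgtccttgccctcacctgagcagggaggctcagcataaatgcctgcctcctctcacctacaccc
Saa2: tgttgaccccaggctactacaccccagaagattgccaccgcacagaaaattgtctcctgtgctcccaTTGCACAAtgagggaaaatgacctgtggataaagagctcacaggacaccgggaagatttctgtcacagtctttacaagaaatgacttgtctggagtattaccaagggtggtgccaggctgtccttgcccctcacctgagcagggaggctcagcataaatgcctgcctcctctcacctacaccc
Orm2: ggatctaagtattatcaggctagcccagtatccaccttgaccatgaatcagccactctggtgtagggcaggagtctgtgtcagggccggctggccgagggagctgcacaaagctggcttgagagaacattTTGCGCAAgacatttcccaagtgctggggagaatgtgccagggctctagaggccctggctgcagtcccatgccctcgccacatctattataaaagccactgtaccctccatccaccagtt
Lcn2: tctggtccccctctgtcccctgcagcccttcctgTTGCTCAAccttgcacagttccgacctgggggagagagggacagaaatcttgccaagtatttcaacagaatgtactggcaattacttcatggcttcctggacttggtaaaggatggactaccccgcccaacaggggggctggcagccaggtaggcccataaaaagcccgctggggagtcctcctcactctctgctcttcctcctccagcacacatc
Hamp: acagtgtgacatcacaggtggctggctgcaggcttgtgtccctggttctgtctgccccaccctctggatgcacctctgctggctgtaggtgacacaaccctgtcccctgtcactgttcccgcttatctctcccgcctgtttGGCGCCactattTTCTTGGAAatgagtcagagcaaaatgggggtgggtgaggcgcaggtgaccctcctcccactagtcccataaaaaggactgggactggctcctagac

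RefSeq promoters were at hand for 7 of the 10 genes, these 5 with Saa3 and Saa4. The C/EBP letters TTGCNNAA occurred in 6 of the 7, every one but Hamp, and in 9.56% of 32851 promoters of the same length. The first base of the match lay 182 bases before the gene start in Saa1, 183 in Saa2, 120 in Orm2, 216 in Lcn2 and 99 in Saa3, and Saa4 held 2 matches, 245 and 52 bases before its start. The STAT3 letters TTCNNNGAA were in 1 of the 7, Hamp, 97 bases before its start, and in 7.02% of all promoters. The BMP-responsive element GGCGCC was likewise in Hamp alone, 109 bases before the start, and in 9.59% of all promoters. The NF-kappaB consensus was in 0 of the 7 and in 3.899% of all. The motifs do not overlap one another in these windows. A match is a run of letters and not a measured binding site. The Saa1 and Saa2 promoters were identical at 238 of 251 aligned columns (94.8%), and the other 20 pairs among the 7 at 42.6% to 52.6%.

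The serum amyloid A genes differed among themselves. Saa2 was at 65.5 and 230.4 CPM in db/db livers on brazzein, 78.5 and 64.9 on sucrose and 74.7 and 174 on water, against 6.99 and 29.4 in db/+ livers on brazzein, 5.31 and 6.94 on sucrose and 8.12 and 13.1 on water. Every db/db library was above every db/+ library, and brazzein replicate 2 was the highest of its genotype in both. The means were 115 ± 70.2 CPM in db/db and 11.6 ± 9.09 CPM in db/+ (SD, n = 6 each). The fitted difference, averaged over drinks on the log2 scale and not the ratio of these means, was 10.4-fold (log2 3.37, SE 0.48, edgeR adjusted p = 0.00482). Saa1 was at 40.2 and 146 CPM in db/db livers on brazzein, 42.1 and 37.7 on sucrose and 40.4 and 129 on water, against 15.2 and 34.4 in db/+ livers on brazzein, 8.73 and 8.67 on sucrose and 7.94 and 18.1 on water. It was 4.83-fold higher in db/db (log2 2.27, SE 0.45, edgeR adjusted p = 0.0154), and the lowest db/db library, at 37.7 CPM, lay just above the highest db/+ library, at 34.4 CPM.

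The other serum amyloid A genes did not pass. Saa3 ranged from 2.40 to 6.41 CPM in db/db livers and from 0.242 to 8.48 CPM in db/+ livers (log2 0.94, SE 0.61, edgeR adjusted p = 0.337). The db/+ livers were spread: 0.242 to 0.749 CPM in both sucrose libraries and brazzein replicate 1, and 4.72 to 8.48 CPM in both water libraries and brazzein replicate 2. Leaving out db/+ brazzein replicate 2 brought Saa3 past the threshold (log2 2.03, adjusted p = 0.0166). Saa4 averaged 125 ± 43.4 CPM in db/db and 135 ± 36.4 CPM in db/+ (SD over 6 libraries each), with a log2 difference of -0.10 (SE 0.18, edgeR adjusted p = 0.741).

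Lcn2 had the largest fold difference of the 10 genes. Its levels were 91.9 and 212 CPM in db/db livers on brazzein, 75.8 and 107 on sucrose and 98.2 and 218 on water, against 2.92 and 32.4 in db/+ livers on brazzein, 3.68 and 4.37 on sucrose and 3.72 and 3.79 on water. The db/db libraries were all higher, and 5 of the 6 db/+ libraries lay between 2.92 and 4.37 CPM while brazzein replicate 2 stood alone at 32.4 CPM. The means were 134 ± 64.0 and 8.48 ± 11.7 CPM in db/db and db/+ (SD, n = 6 each). The fitted difference, averaged over drinks on the log2 scale and not the ratio of these means, was 20.2-fold (log2 4.34, SE 0.60, edgeR adjusted p = 0.00420). Without db/+ brazzein replicate 2 the log2 difference was 5.22.

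The alpha-1-acid glycoprotein genes moved less. Orm1 was at 887 and 921 CPM in db/db livers on brazzein, 547 and 511 on sucrose and 779 and 922 on water, against 806 and 586 in db/+ livers on brazzein, 288 and 266 on sucrose and 483 and 599 on water. The genotypes overlapped, and the sucrose libraries were the lowest of each genotype. Averaged over drinks Orm1 was 1.57-fold higher in db/db (log2 0.65, SE 0.10, edgeR adjusted p = 0.00700). Orm2 ranged from 48.3 to 171 CPM in db/db, with a median of 91.8, and from 17.1 to 71.3 CPM in db/+, with a median of 39.96, and was 2.47-fold higher in db/db (log2 1.30, SE 0.23, edgeR adjusted p = 0.0108). Hp averaged 6662 ± 1383 CPM in db/db and 5467 ± 865 CPM in db/+ (SD over 6 libraries each), with a log2 difference of 0.28 (SE 0.10, edgeR adjusted p = 0.109).

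Hamp and Serpina3k were lower in db/db livers. Hamp was at 350 and 719 CPM in db/db livers on brazzein, 467 and 339 on sucrose and 401 and 318 on water, against 2079 and 1032 in db/+ livers on brazzein, 1678 and 2204 on sucrose and 2245 and 1078 on water. All db/db libraries lay below all db/+ libraries, and the level in db/db was 0.249 of that in db/+ (log2 -2.01, SE 0.29, edgeR adjusted p = 0.00495). Serpina3k was at 2646 and 3072 CPM in db/db livers on brazzein, 2717 and 2439 on sucrose and 3764 and 3237 on water, against 9935 and 8713 in db/+ livers on brazzein, 9220 and 7408 on sucrose and 6641 and 10203 on water. Again no library crossed over, and Serpina3k had the smallest p of the 10 genes (0.341-fold, log2 -1.55, SE 0.13, edgeR adjusted p = 0.000740).

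**Figure D2:**
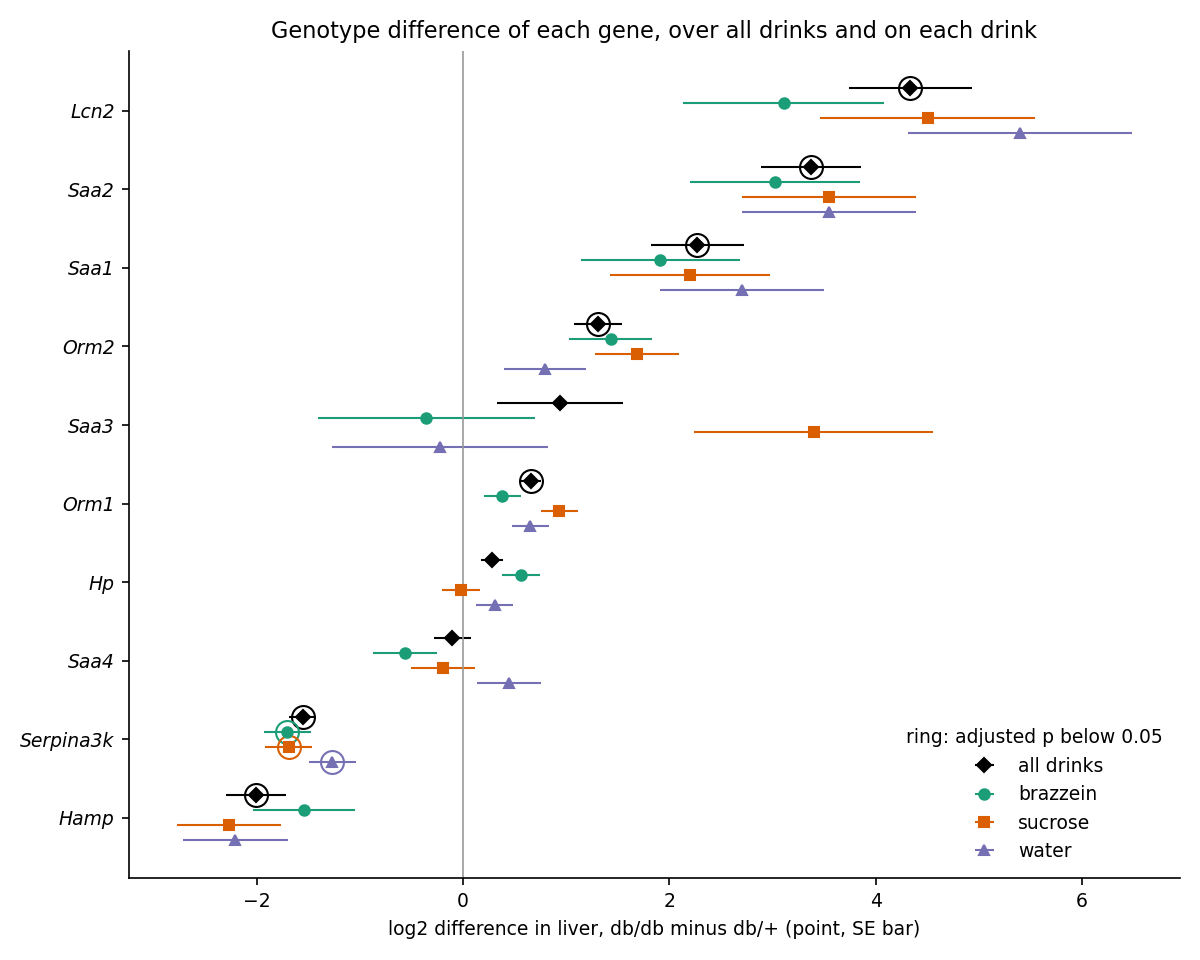
Log2 difference between db/db and db/+ liver for each of the 10 genes, averaged over drinks and on each drink, with bars for the SE and a ring where the edgeR adjusted p was below 0.05. Lcn2 (4.34) and Hamp (-2.01) are the extremes of the averaged values, and on single drinks the ring appears for Serpina3k alone.

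Transcript levels of different genes can be set side by side only per length, and the order of levels by mean FPKM was as follows. In db/db livers it ran Hp (3755), Serpina3k (1093), Hamp (799), Orm1 (735), Saa2 (138), Orm2 (98.9), Lcn2 (91.9), Saa1 (86.3), Saa4 (44.8) and Saa3 (6.16). Saa2, Orm2, Lcn2 and Saa1 follow each other by steps smaller than their SDs (82.1, 41.1, 40.9 and 59.1 FPKM), as do Hamp and Orm1 (SD 273 and 143 FPKM). In db/+ livers Serpina3k (2845), Hamp (2835) and Hp (2760) were level within their SDs (420, 921 and 543 FPKM), followed by Orm1 (435), Saa4 (43.6), Orm2 (36.6), Saa1 (15.5), Saa2 (12.6), Lcn2 (5.61) and Saa3 (4.27). There Saa4 and Orm2, and each neighbouring pair from Saa1 to Saa3, also differed by less than their SDs. Saa4, the form made without a stimulus, thus ranked above the other Saa genes in db/+ and below Saa1 and Saa2 in db/db.

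Several of these genes have near copies, and how the counting divided shared reads is not given in the sources used here. In GENCODE transcripts, 13.2% of the 50-base windows of Saa1 also occur in Saa2, 20.4% of those of Orm1 in Orm2, 16.6% of those of Hamp in Hamp2 and 12.8% of those of Serpina3k in Serpina3m, so the split within these pairs is uncertain; Lcn2 and Hp share none with the copies searched. Summed, Saa1 and Saa2 came to 187 ± 121 CPM in db/db and 27.1 ± 19.02 CPM in db/+, and Orm1 and Orm2 to 864 ± 225 CPM in db/db and 548 ± 226 CPM in db/+ (SD, n = 6 each). The ratio of Saa2 to Saa1 in FPKM ran from 1.36 to 1.91 in db/db livers, with a median of 1.68, and from 0.456 to 1.38 in db/+ livers, with a median of 0.838. From the counts the same ratio was 1.34 to 1.86 for db/db livers and 0.462 to 1.02 for db/+ livers. The measures differed for db/+ sucrose replicate 1, at 1.38 in FPKM and 0.608 from the counts. In FPKM, Orm2 stood at 0.0915 to 0.186 of Orm1 in db/db livers and at 0.0591 to 0.107 in db/+ livers. These ratios are descriptions without a test.

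**Figure D3:**
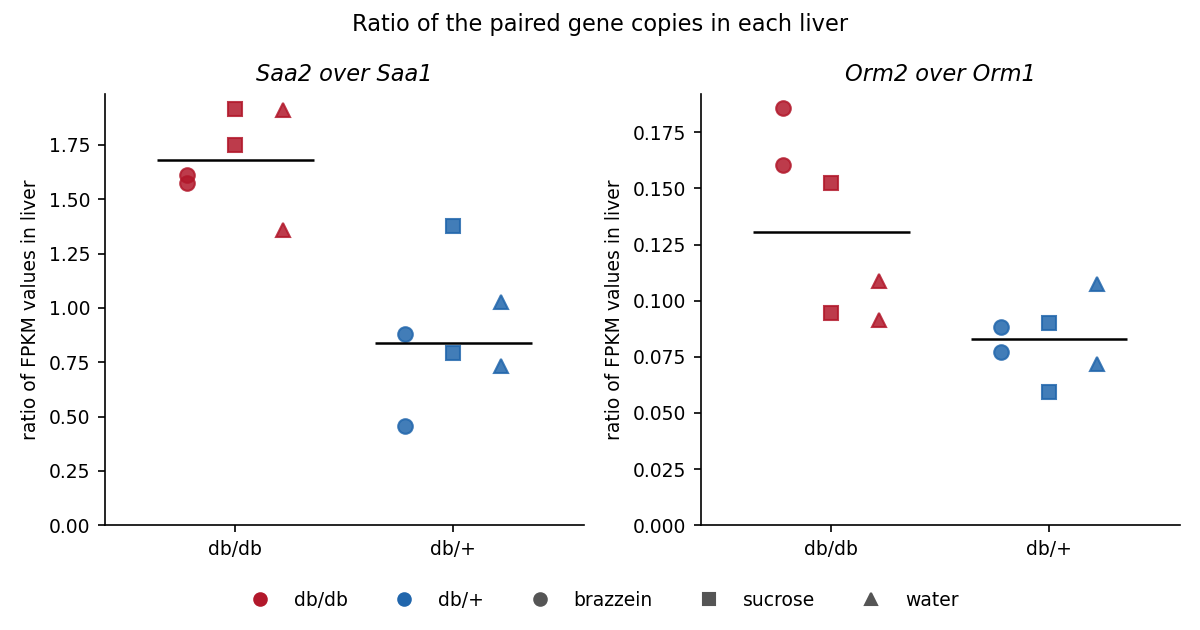
Ratio of Saa2 to Saa1 and of Orm2 to Orm1 in FPKM, 1 point per liver with db/db left of db/+ and a line at the median. The Saa2 to Saa1 medians are 1.68 in db/db and 0.838 in db/+, and the ratios of the genotypes overlap in both panels.

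Among the near copies, chosen after their values were seen, Hamp2 went the other way from Hamp. It averaged 207 ± 81.2 CPM in db/db and 73.3 ± 103 CPM in db/+ (SD over 6 libraries each), with a log2 difference of 1.97 (SE 0.46, edgeR adjusted p = 0.0270). The db/db libraries held 107 to 304 CPM and 5 db/+ libraries 15.5 to 45.8 CPM, while db/+ brazzein replicate 2 held 282 CPM. Hamp2 encodes a hepcidin-like peptide. Serpina3n, a mouse counterpart of the human alpha-1-antichymotrypsin gene, was higher in db/db, at 240.0 ± 20.1 CPM against 148 ± 31.1 CPM in db/+ (log2 difference 0.71, SE 0.12, edgeR adjusted p = 0.00882). Serpina3m was at 338 ± 73.5 CPM in db/db and 242 ± 62.0 CPM in db/+ (log2 0.48, edgeR adjusted p = 0.0408). Both stood on the other side from Serpina3k.

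Within a genotype, some of the genes varied together over libraries and others in opposite directions. Over the 6 db/db livers, Pearson r of log2 CPM was 0.990 between Saa1 and Saa2, 0.950 between Saa1 and Lcn2 and 0.787 between Orm1 and Orm2. Over the 6 db/+ livers the same pairs gave 0.894, 0.761 and 0.943. Saa3 had a negative r with each of the other 9 genes in db/db, such as -0.625 with Saa1 and -0.922 with Hamp, and 0.560 with Saa1 in db/+. Hamp had a negative r with each of the other 9 in db/+, such as -0.82 with Saa1, and 0.434 with Saa1 in db/db. The points of a pair share a library and its scaling, and in db/+ Lcn2 had 1 library far from the rest, brazzein replicate 2. Saa1 with Saa2 and Orm1 with Orm2 are also near copies with shared reads, and the part of the read split in their r was not tested. In db/db, brazzein replicate 2 and water replicate 2 stood apart for Saa1, at 146 and 129 CPM with the rest at 37.7 to 42.1. The same libraries held 212 and 218 CPM of Lcn2, with the rest at 75.8 to 107.

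The genes whose pattern over the 12 livers was most like Saa1, Lcn2, Orm2 or Hamp were ranked by Pearson r among 11291 genes of at least 1 CPM, the other members included. Because the genotypes form separate clusters, r is given within each genotype (n = 6 each). For Saa1 the leading genes after Saa2 were Abhd5, a co-activator of lipolysis (r 0.868 in db/db and 0.915 in db/+), and Herpud2 (0.923 and 0.841 in the same order). For Lcn2 they were Snx5, a sorting nexin (0.538 in db/db and 0.934 in db/+), Saa2 (0.919 and 0.876) and Dnajc10, a chaperone of the endoplasmic reticulum (0.331 and 0.886). For Orm2 they were Orm1, the ammonium transporter gene Rhbg (0.717 in db/db and 0.880 in db/+) and Nans, which makes sialic acid (0.919 and 0.723). For Hamp they were Wsb1, part of a ubiquitin ligase (0.839 in db/db and 0.787 in db/+), Gstp1, a glutathione transferase (0.873 and 0.672), and Klc1, a kinesin light chain (0.812 and 0.770).

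Other acute phase genes moved both ways, beside 7.91% of all liver genes called higher and 7.27% called lower. Of 30 further positive acute phase genes, 28 were tested, 11 were higher and 4 lower in db/db liver, with a median log2 of 0.34. By smallest p these were led by Apcs, serum amyloid P (186 ± 10.9 CPM in db/db and 83.3 ± 14.7 CPM in db/+, log2 1.17, SE 0.08, edgeR adjusted p = 0.000348), the ferroxidase gene Cp (log2 0.71, adjusted p = 0.00201), Steap4, a metalloreductase (log2 1.25, adjusted p = 0.00241), and the complement gene C4b (log2 0.59, adjusted p = 0.00515). The 4 lower genes were C3, Itih3, Serping1 and Agt. Of 13 negative acute phase genes, 5 were lower and 1, the transferrin gene Trf, was higher, with a median log2 of -0.56. The other 7 were not called, among them the albumin gene Alb (log2 0.21, SE 0.14, edgeR adjusted p = 0.336). The lower ones included Rbp4, the retinol carrier of plasma (3133 ± 615 CPM in db/db and 5189 ± 693 CPM in db/+, log2 -0.74, edgeR adjusted p = 0.00156), the fetuin gene Fetub (log2 -1.27, adjusted p = 0.00168), the matrix-binding inhibitor gene Itih1 (log2 -0.52, adjusted p = 0.00711) and Pon1, an esterase of high-density lipoprotein (log2 -0.55, adjusted p = 0.0121).

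The share of upstream pathway genes called is to be read beside the 15.2% called over all liver genes. Of 36 cytokine, receptor and transcription factor genes, 33 were tested, 3 were higher and 3 lower, with a median log2 of -0.05. Il1rap, the co-receptor for interleukin 1, was lower (89.3 ± 6.29 CPM in db/db and 164 ± 12.9 CPM in db/+, log2 -0.88, edgeR adjusted p = 0.000385), as were the NF-kappaB inhibitor gene Nfkbia (log2 -0.65, adjusted p = 0.00487) and the adaptor gene Myd88 (log2 -0.49, adjusted p = 0.0239). Tnfrsf1a, a receptor for tumor necrosis factor, was higher (log2 0.60, adjusted p = 0.00621), as was Tlr2. Lif was also called higher (edgeR adjusted p = 0.0464), near the floor, at 0 to 0.411 CPM in db/db and 0 in every db/+ liver. Stat3 was at 50.1 ± 17.6 CPM in db/db and 49.3 ± 5.73 CPM in db/+. Of 20 genes of iron and hepcidin control, 18 were tested and 2 were higher. Hjv, the BMP co-receptor that raises hepcidin, was at 25.7 to 54.3 CPM in db/db livers and 3.59 to 21.6 CPM in db/+ livers (log2 2.19, SE 0.32, edgeR adjusted p = 0.00489), beside the lower Hamp. Fth1, the ferritin heavy chain, was at 2942 ± 530 CPM in db/db and 1821 ± 257 CPM in db/+ (SD, n = 6 each; log2 0.68, adjusted p = 0.000921). Of 12 receptors and partners of acute phase proteins, the scavenger receptor gene Cd36 was higher (log2 1.66, adjusted p = 0.00168) and Apol9a lower (log2 -1.12, adjusted p = 0.0366).

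Some markers of blood cells were higher in db/db livers, beside 7.91% of all liver genes called higher. The sums of the 3 lists overlapped between genotypes, and the part of these cells in the differences was not tested. The 11 neutrophil markers, a cell type in which Lcn2 is also made, summed to 5.24 to 14.8 CPM in db/db livers and 1.45 to 5.69 CPM in db/+ livers. Of the 10 tested 1 was called, S100a9 (log2 1.76, adjusted p = 0.0112), Ly6g was at 0 in every liver and Mpo at 0 in db/+. The highest sum, 14.8 CPM, was in db/db brazzein replicate 2, whereas db/+ brazzein replicate 2, with the outlying Lcn2, had the lowest, 1.45 CPM. The 10 macrophage and Kupffer cell markers summed to 127 to 268 CPM in db/db and 66.6 to 277 CPM in db/+, and 4 of the 10 were higher (Cd68, Trem2, Gpnmb and Lyz2). The 6 erythroid markers summed to 1101 to 3709 CPM in db/db and 659 to 1214 CPM in db/+, with 4 of the 6 higher. No marker of these 3 lists was called lower.

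On each drink taken alone, where 2 libraries stood against 2, the lower level of Serpina3k was the 1 difference that passed. Its log2 difference was -1.71 on brazzein (SE 0.23, edgeR adjusted p = 0.0153), -1.69 on sucrose (SE 0.23, adjusted p = 0.0268) and -1.27 on water (SE 0.23, adjusted p = 0.0417). Over all genes 1.58% were called on brazzein, 0.868% on sucrose and 1.51% on water. Unadjusted p-values were below 0.05 for 7 of the 10 genes on brazzein, 8 on sucrose and 6 on water. Of all 19352 genes, 3380, 3156 and 3798 had an unadjusted p below 0.05, in the same order. DESeq2 called 5, 7 and 6 of the 10 members, beside 1912, 1590 and 2132 of all genes. The log2 differences of Lcn2 were 3.11 on brazzein, 4.50 on sucrose and 5.40 on water, those of Saa2 were 3.02, 3.55 and 3.55 in the same order, and those of Hamp -1.54, -2.27 and -2.21. Without either db/db brazzein library the Serpina3k call on brazzein was lost (adjusted p = 0.0554 and 0.0643). On sucrose it was lost without any of the 6 db/db libraries or either db/+ sucrose library (adjusted p = 0.0538 to 0.148). On water it was lost without any of the 6 db/db libraries, either db/+ sucrose library or db/+ water replicate 2 (adjusted p = 0.0625 to 0.254), and without the last of these the log2 difference was -0.90.

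Whether the genotype difference depended on the drink was tested as an interaction, and no member passed for sucrose against water or for brazzein against water by edgeR or by DESeq2. Over all genes 0.0155% and 0.0672% were called. At an unadjusted p below 0.05 there was 1 member for sucrose, Saa3 (log2 difference of differences 3.62, SE 1.53), and 0 for brazzein. Of all 19352 genes, 961 for sucrose and 1203 for brazzein had an unadjusted p below 0.05.

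Between the drinks, with both genotypes averaged, Orm1 was higher on brazzein than on sucrose. Brazzein livers held 887 and 921 CPM in db/db and 806 and 586 CPM in db/+, against 547 and 511 CPM in db/db and 288 and 266 CPM in db/+ for sucrose livers. All 4 brazzein livers were above all 4 sucrose livers, which held for no other of the 10 genes and for 5.29% of all genes. The means were 800 ± 151 CPM on brazzein and 403 ± 146 CPM on sucrose (SD over 4 libraries each), with a log2 difference of 1.05 (SE 0.13, edgeR adjusted p = 0.0343). This was 1 of 10 members called, and 0.145% of all genes were called. The call was lost without db/db brazzein replicate 2, either db/db or db/+ sucrose library or either db/db water library (adjusted p = 0.0542 to 0.132).

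The other 9 genes did not pass between brazzein and sucrose, although all 10 log2 differences were above 0. The median of the 10 was 1.17, beside -0.03 over all genes. In db/+ on brazzein, replicates 2 and 1 were far apart for Lcn2 (32.4 and 2.92 CPM), Saa2 (29.4 and 6.99) and Saa3 (8.48 and 0.484). Within 1 genotype some values went the other way. Saa3 in db/db was at 4.61 and 2.40 CPM on brazzein and 4.12 and 6.4 on sucrose. Hamp in db/+ was at 2079 and 1032 CPM on brazzein and 1678 and 2204 on sucrose. Orm2 had a log2 difference of 1.38 (SE 0.29, edgeR adjusted p = 0.0991), and DESeq2 called it along with Orm1 (adjusted p = 0.00105 and 2.02e-08). Lcn2 (1.43), Saa1 (1.37), Saa2 (1.31) and Saa3 (1.29) had differences of like size with edgeR adjusted p-values of 0.292 to 0.474. Saa4 was at 0.51, Serpina3k at 0.16, Hp at 0.07 and Hamp at 0.04. In none of the 5 lists of other acute phase, signalling, iron and receptor genes was a gene called between these drinks.

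**Figure D4:**
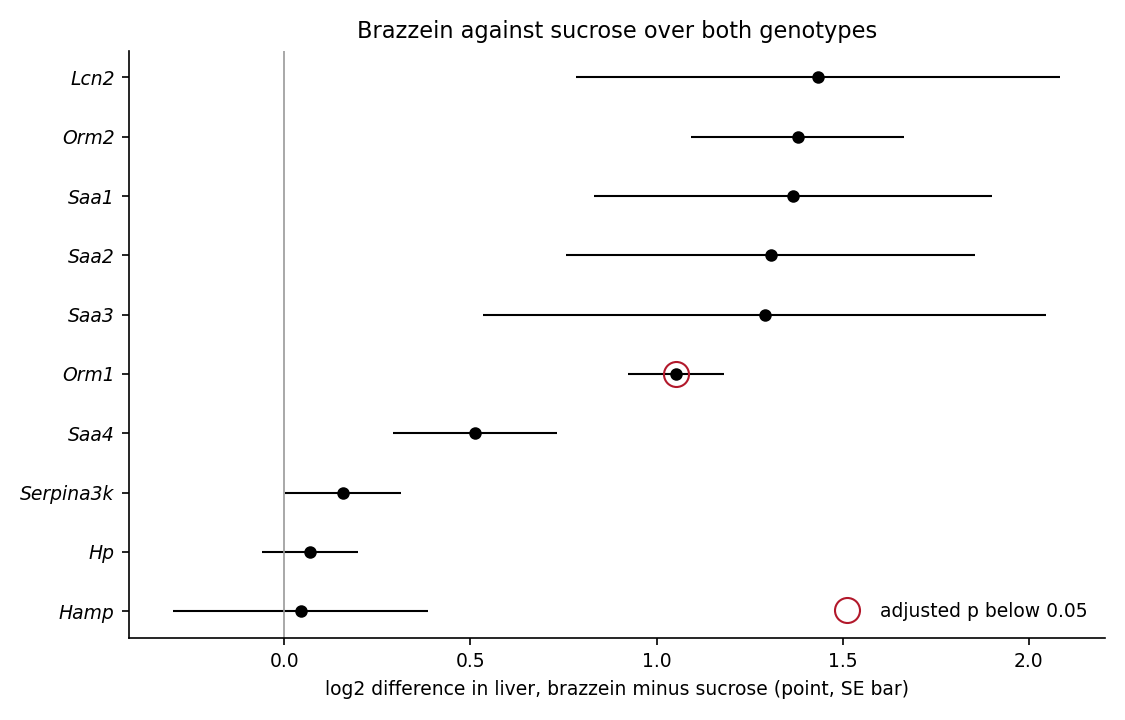
Log2 difference between brazzein and sucrose livers, averaged over genotypes, for each of the 10 genes, with bars for the SE and a ring where the edgeR adjusted p was below 0.05. All 10 points are above 0, from 0.04 for Hamp to 1.43 for Lcn2, and the ring is on Orm1.

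Against water no member was called on either drink. These comparisons share libraries with the one above. For brazzein minus water, 1 of the 10 genes had an unadjusted p below 0.05 (Hp), beside 1825 of all 19352 genes. DESeq2 called 0 members, and edgeR called 0.0723% of all genes. For sucrose minus water, 4 of the 10 had an unadjusted p below 0.05, beside 1137 of all 19352 genes. By edgeR adjusted p, 0.0155% of all genes were called. Orm1 had a log2 difference of -0.83 there (edgeR adjusted p = 0.221), and it was the 1 member that DESeq2 called (log2 -0.82, adjusted p = 0.000190).

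In the brain these genes were at or near 0. Saa4 and Orm1 were listed at 0 in all 12 brains, and Orm2 was above 0 in 1 (db/db sucrose replicate 1, 0.0340 CPM). Saa1 reached at most 0.154 CPM, Saa2 0.277, Saa3 0.169, Hamp 0.0511 and Serpina3k 0.2003. Lcn2 and Hp were the most abundant, and Lcn2, Hp, Saa2 and Serpina3k passed the filter on low counts and were tested.

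None of the 4 passed between genotypes in brain, where 2 of 23653 genes were called (0.00846%). Lcn2 was at 1.46 and 0.868 CPM in db/db brains on brazzein, 1.09 and 1.31 on sucrose and 0.907 and 1.203 on water, against 0.322 and 0.461 in db/+ brains on brazzein, 1.08 and 0.421 on sucrose and 0.671 and 0.0650 on water. The groups overlapped through 1 db/+ sucrose library, and the difference did not pass (log2 1.25, SE 0.47, edgeR adjusted p = 0.301). It was 2.07 without db/+ water replicate 1 and 0.44 with limma on log2(FPKM + 1), and passed under no alternative run (adjusted p = 0.126 to 0.483). Hp was at 0.373 to 1.12 CPM in db/db and 0.201 to 0.646 CPM in db/+ (log2 0.73, SE 0.30, adjusted p = 0.328). Saa2 had a log2 difference of -0.76 (SE 0.72, adjusted p = 0.704), and Serpina3k was too near 0 for an estimate. At an unadjusted p below 0.05 there were 2 members, Lcn2 and Hp, beside 3275 of the 23653 brain genes. DESeq2 called 0 members, beside 869 of all brain genes.

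**Figure D5:**
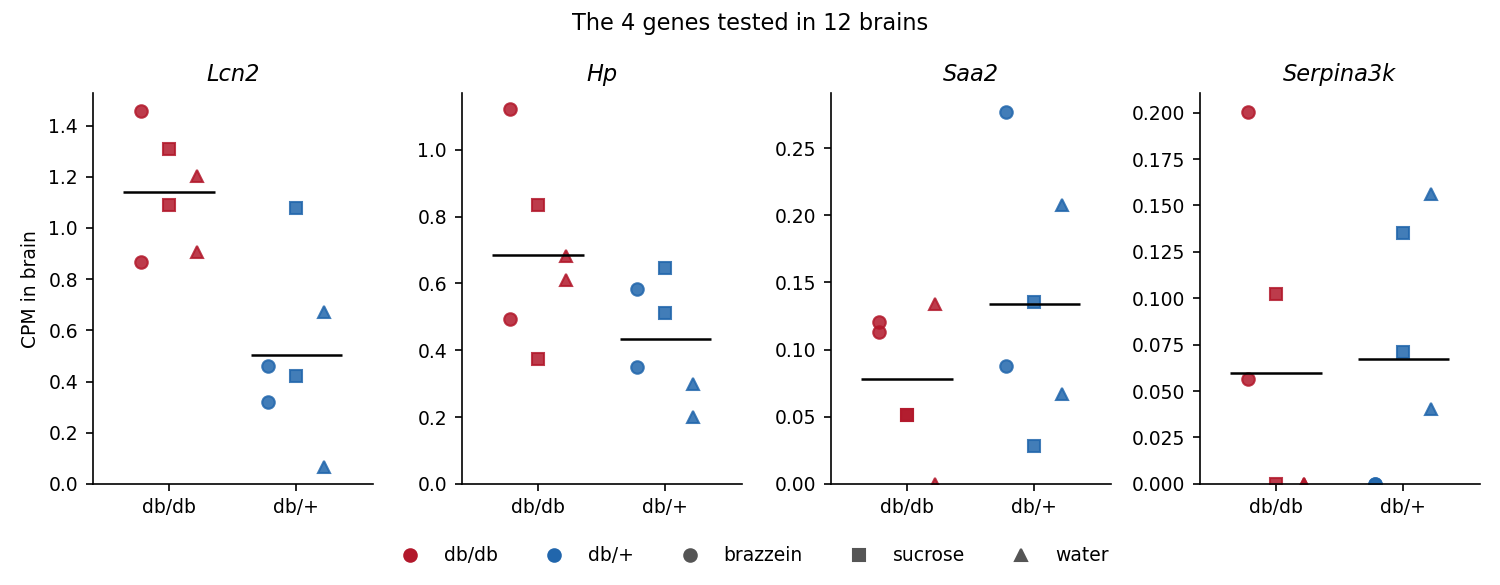
Lcn2, Hp, Saa2 and Serpina3k in the 12 brains, in CPM, with db/db left of db/+, 1 marker shape per drink and a line at the mean of 6 libraries. Lcn2 runs from 0.868 to 1.46 CPM in db/db and from 0.0650 to 1.08 CPM in db/+.

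Of the 2 brain genes called, 1 is an acute phase gene, C4b, at 46.9 ± 2.51 CPM in db/db and 34.6 ± 1.75 CPM in db/+ (SD over 6 libraries each), with a log2 difference of 0.44 (SE 0.04, edgeR adjusted p = 0.0379). It was the 1 called of 22 positive acute phase genes tested there. With limma on log2(FPKM + 1) no brain gene was called, C4b included, and the same held with the replicate number as a block. Of the negative acute phase, signalling, iron and receptor genes, 0 of 9, 0 of 32, 0 of 19 and 0 of 11 were called. Of the brain blood markers, 0 of 6 erythroid and 0 of 8 tested neutrophil genes were called. The erythroid sum was 1450 to 2603 CPM in db/db and 856 to 1909 CPM in db/+, and the neutrophil sum 6.70 to 11.9 CPM in db/db and 5.74 to 9.48 CPM in db/+, with overlap in both. The 7 hepatocyte markers summed to 0.693 to 6.62 CPM in db/db and 0.676 to 1.38 CPM in db/+. The part of these cells was not tested. Between the drinks, 0 of the 4 tested members and 0% of all brain genes were called in each of the 3 comparisons by edgeR. At an unadjusted p below 0.05 there were 0 members, beside 951 to 1327 of 23653 brain genes. DESeq2 called 0 members.

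Whether the genotype difference itself differed between liver and brain was tested over all 24 libraries. Saa2 (log2 4.13 greater in liver, SE 0.86, edgeR adjusted p = 0.00760) and Lcn2 (log2 3.09 greater, SE 0.77, adjusted p = 0.0205) passed, 2 of the 10 members, beside 9.75% of 25725 genes. The Lcn2 call was lost without brain db/+ sucrose replicate 1 (log2 2.82, adjusted p = 0.0512) or brain db/+ water replicate 1 (2.28, adjusted p = 0.103), and the Saa2 call without brain db/+ sucrose replicate 2 (3.65, adjusted p = 0.0943). Without brain db/db water replicate 2 the Saa2 value was 5.76, and without liver db/+ brazzein replicate 2 the Lcn2 value was 3.96. Saa2 was below 0.3 CPM in every brain, so its brain term rests on few reads. Saa4, Orm1, Orm2 and Serpina3k were at or near 0 in brain and had SEs of 150 to 3154 in this comparison. Saa1, Saa3 and Hamp were too low in brain to be tested there. For these genes the missing call cannot decide whether the genotype difference was alike in the tissues.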

How the data were processed

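Per the labels' protocols, TRIzol was used for extraction, poly(A) RNA was selected, and a NEBNext Ultra II RNA kit, by its name one that does not keep strand, gave the libraries. Per the submitters' processing notes, bcl2fastq and GRCm39 were used; aligner, counter and annotation: not given in the sources used here. The deposited per-sample files hold expected counts as whole numbers for 55797 gene names, not scaled for library size. The series table holds FPKM, per the file headers, and 24 further columns of per-sample values that were not used. For the db/+ brazzein livers the numbering of the replicates differs between the counts and the FPKM, within the group.

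The test was the quasi-likelihood test of edgeR 4.0.16 in R 4.3.3, after TMM scaling and filterByExpr. Each tissue had its own fit of 6 groups, and 1 fit of all 24 libraries served the difference between tissues. Benjamini-Hochberg adjustment ran over every gene tested in a comparison, and an adjusted p below 0.05 was a call. SE is the absolute log2 difference divided by the square root of F, and CPM uses the TMM-scaled totals. As alternatives, limma 3.58.1 was run on log2(FPKM + 1), the counts were tested with DESeq2 1.42.0, and edgeR was repeated with RLE factors, without the filter, with a replicate block and without each library in turn. The fits were first tested on simulated data of known answer. Because counts are estimated, no counting interval was computed.

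The 10 genes and the gene lists were chosen with earlier results of these data known. Up to 4 genes per list, by smallest p among those called, and the 3 genes most alike were named by rule.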

Additional observations from a re-analysis of the deposited data

Results flagged for a closer look

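In db/+ liver, Lcn2 was at 32.4 CPM in brazzein replicate 2, apart from the other 5 libraries at 2.92 to 4.37 CPM. The gap was 0.835 of the range on the log2 scale, past Dixon's critical value of 0.625 for 6 samples, a limit that chance alone passes in about 5% of groups. The same library had the highest Saa1 (34.4 CPM), Saa2 (29.4 CPM), Saa3 (8.48 CPM) and Hamp2 (282 CPM) of the db/+ livers. It also had the highest Serpina3m (365 CPM), Serpina3n (197 CPM) and Hjv (21.6 CPM) and the lowest Hamp (1032 CPM). For Saa4, Orm1, Orm2, Hp and Serpina3k it was neither the highest nor the lowest. Its neutrophil marker sum was the lowest, 1.45 CPM.

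The genotype differences of Saa2 and Lcn2 were greater in liver than in brain, by 4.13 and 3.09 on the log2 scale (edgeR adjusted p = 0.00760 and 0.0205). Each of these rests on a brain level of at most 0.277 CPM for Saa2 and 1.46 CPM for Lcn2.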

How the results depend on the processing

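The 7 members called between genotypes in liver were called under every alternative run, with Hp as an 8th with limma on log2(FPKM + 1) (log2 0.44, adjusted p = 0.0250) and Saa3 as an 8th without db/+ brazzein replicate 2. Saa4 alone changed sign, to 0.029 with limma and over -0.27 to 0.044 on leaving out libraries. On single drinks the 1 call became 5 on brazzein, 7 on sucrose and 6 on water with DESeq2, and ranged over 0 to 2, 0 to 4 and 0 to 3 on leaving out libraries. Between brazzein and sucrose the 1 call became 2 with DESeq2 and 0 to 1 on leaving out libraries, and between sucrose and water DESeq2 called 1. The tissue difference called 1 to 2 members on leaving out libraries.

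Same-numbered libraries of a tissue did not deviate together (correlations of -0.105 to 0.0921 in liver and -0.0405 to 0.0404 in brain). In either tissue 0 of 15 pairs were over 0.1, so no pairing by number was seen within a tissue. Livers were not compared with brains here, so whether a liver and a brain came from the same mouse is unknown. The test between tissues treated all 24 libraries as independent. With the replicate block, 0 members were called on water, 0 on sucrose and 0 between brazzein and sucrose (Orm1 adjusted p = 0.0923). No other member count changed with it.

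Over all genes the liver genotype count of 2937 was 4848 with DESeq2 and 1407 to 3402 on leaving out libraries. On brazzein 305 became 1912 with DESeq2, 194 with the block and 131 to 389 on leaving out libraries, on sucrose 168 became 1590, 72 and 19 to 438, and on water 293 became 2132, 147 and 14 to 606. Without the filter the count was 193 on water, 27 between brazzein and water, 5 for the sucrose interaction (1 with the block) and 1 for brain genotype (0 with limma). Between brazzein and sucrose 28 became 1258, 15 and 18 to 269, between brazzein and water 14 became 548 with DESeq2 and 12 to 156, and between sucrose and water 3 became 190, 1 and 1 to 31. DESeq2 called 111 and 276 genes for the interactions with sucrose and brazzein, where edgeR called 3 and 13. The brain genotype count of 2 was 869 with DESeq2, 0 with the block and 1 to 42 on leaving out libraries. DESeq2 called 69, 59 and 73 brain genes between brazzein and sucrose, brazzein and water, and sucrose and water, and 4520 genes, not 2509, for the tissue difference. The cause of these differences was not tested. A single drink has 2 libraries against 2. In brain 6 members were too low to be tested.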

Other observations

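In the 12 brains, the genes most like Lcn2 by Pearson r over 14113 candidates were Atp6v0e, a subunit of the vacuolar proton pump (r 0.056 within db/db and 0.944 within db/+, n = 6 each), Gstm6, a glutathione transferase (0.573 within db/db and 0.921 within db/+), and Plppr3 (0.107 within db/db and 0.900 within db/+). Lcn2 ran from 0.868 to 1.46 CPM in db/db brains and from 0.0650 to 1.08 CPM in db/+ brains.

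The metallothionein gene Mt1, an acute phase gene of metal binding, ranged from 531 to 1921 CPM in db/db livers and from 34.5 to 1201 CPM in db/+ livers (log2 2.33, SE 0.64). Cd14, a receptor for bacterial lipopolysaccharide, was at 6.11 ± 2.01 CPM in db/db livers and 2.36 ± 1.62 CPM in db/+ livers (SD, n = 6 each; log2 1.48, SE 0.41). Both are among the 11 further positive acute phase genes called higher by edgeR.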
